A study of Mus musculus with 24 samples.

Results

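Gene expression was compared between untreated LLC1 cells at 24 h and at 6 h after the start of treatment in the other arms of the study. LLC1 is a mouse line grown from Lewis lung carcinoma, and the labels give the cell line alone, with no clone or passage. The untreated cells are called untreated in their labels, and the design text gives them the solvent alone, 0.1% DMSO. They were chosen by their label, and they hold 6 of the 24 libraries of the study, 3 at 24 h and 3 at 6 h. A further 3 arms were sampled at the same times with 3 libraries a group: 2.5 µM cisplatin with 2.5 µM pemetrexed (CP), 10 nM trametinib (T), and all 3 drugs (TCP). Trametinib is an inhibitor of the kinase MEK, cisplatin crosslinks DNA, and pemetrexed blocks enzymes that need folate to make nucleotides. Nothing in the labels says whether the 3 libraries of a group are separate cultures, so the p-values speak only of how far these libraries lie apart, which could be technical spread. Cell density, confluence and the age of the medium at the harvests are not given in the sources used here.

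Untreated cells in culture keep changing between harvests, because they divide, use up nutrients and growth factors and change the medium around them. Growing cells make ribosomes in the nucleolus and copy their DNA with enzymes whose genes are switched on by E2F factors. Cells that slow down make more of the inhibitors of cyclin-dependent kinases, and cells short of amino acids or under stress in the endoplasmic reticulum translate the factor ATF4, which switches on genes of amino acid supply and the factor CHOP. These statements are background, and none of the processes was measured here other than through mRNA.

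The libraries were poly(A)-selected mRNA libraries, and values were deposited as TPM, the share of a transcript among all transcripts of a library, corrected for its length and scaled to a fixed total, so the sequencing depth behind a value is unknown. A difference below is the log2(TPM + 1) at 24 h minus that at 6 h, with its standard error, from limma's moderated test with n = 3 libraries a side. A ± after a mean TPM is the SD of those 3 libraries. Rose, fell, higher and lower are said of genes with a Benjamini-Hochberg adjusted p under 0.05 over all genes tested. The 6 untreated libraries correlated at 0.988 to 0.994 within a time and at 0.962 to 0.969 between times (Pearson's r over genes), and the first principal component, 71.8% of the variance, separated the times. At least 1 TPM was reached by 11530 to 11577 genes in the 24 h libraries, against 11242 to 11305 genes in the 6 h libraries. Processed pseudogenes held 5.20% to 5.53% of the TPM at 24 h, against 4.02% to 4.40% at 6 h, and the 100 most abundant genes held 37.8% to 37.9% at 24 h, against 34.1% to 35.03% at 6 h; the part of these shares in the results was not tested.

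The cells carried the mRNA of mesenchymal markers and simple keratins at both times. The 9 mesenchymal markers summed to 7249 to 7941 TPM at 24 h, against 10060 to 10510 TPM at 6 h. Their members moved both ways, and Vim and S100a4 held nearly all of the sum. Vim averaged 3967 ± 61.1 TPM at 24 h and 3522 ± 38.1 TPM at 6 h (0.17). S100a4 averaged 3576 ± 322.6 TPM at 24 h and 6685 ± 188.8 TPM at 6 h (-0.91). Pdgfra, Snai2, Zeb1 and Zeb2 were also higher (0.82, 0.59, 0.46 and 0.41), and Cdh2 was also lower (-0.64). Pdgfrb did not pass (-0.04), and Thy1 was not tested. The 7 epithelial markers summed to 323.4 to 336.7 TPM at 24 h, against 374.7 to 397.2 TPM at 6 h. Krt8 averaged 72.4 ± 2.39 TPM at 24 h and 118.3 ± 7.21 TPM at 6 h (-0.70), and Krt18 averaged 257.5 ± 5.13 TPM at 24 h and 264.7 ± 5.14 TPM at 6 h, which did not pass. The part of these sums in the results was not tested. The epithelial markers Epcam and Esrp1 were listed at 0 in all 6 libraries. So were the leukocyte markers Ptprc, Adgre1, Itgam, C1qa, Cd3e, Nkg7, Ncr1 and Ms4a1, while other markers of the same cell types were above 0. Of 8 macrophage markers 2 reached 1 TPM: Cd68 averaged 12.7 TPM at 24 h and 5.17 TPM at 6 h, and Cd14 averaged 12.4 TPM at 24 h and 16.7 TPM at 6 h. The 8 together summed to 21.9 to 27.8 TPM at 24 h, against 21.7 to 22.7 TPM at 6 h. Of 7 T or NK cell markers 1 reached 1 TPM in a library: Cd3d averaged 0.96 TPM at 24 h and 0.63 TPM at 6 h. Of 4 B cell markers 0 did. Of 6 endothelial markers 2 did: Pecam1 averaged 3.06 TPM at 24 h and 3.35 TPM at 6 h, which did not pass. Vwf averaged 2.86 TPM at 24 h and 1.70 TPM at 6 h (0.52). Cdkn2a and Cdkn2b, the tumour suppressor genes of a neighbouring pair, were also listed at 0. Such a 0 need not mean that a gene is silent, since the ribosomal protein gene Rps27, which every cell uses, was listed at 0 at both times too.

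Of 12581 genes tested, 7649 differed between the times, which is 60.8%. Of these 3696 were higher at 24 h (29.4% of genes tested) and 3953 were lower (31.4%). Most differences were small: 91.4% of the genes that passed differed by less than 2-fold, and their median absolute difference was 0.47 on the log2 scale. At least 2-fold higher were 415 genes (3.3%), and at least 2-fold lower were 240 genes (1.91%). The median difference over all genes tested was -0.01. Under the rule of the study's design text, a Bonferroni adjusted p under 0.10, 3202 genes passed, 1578 higher and 1624 lower. A count of members in a gene list is read below against the shares of 29.4% and 31.4%.

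**Figure D1:**
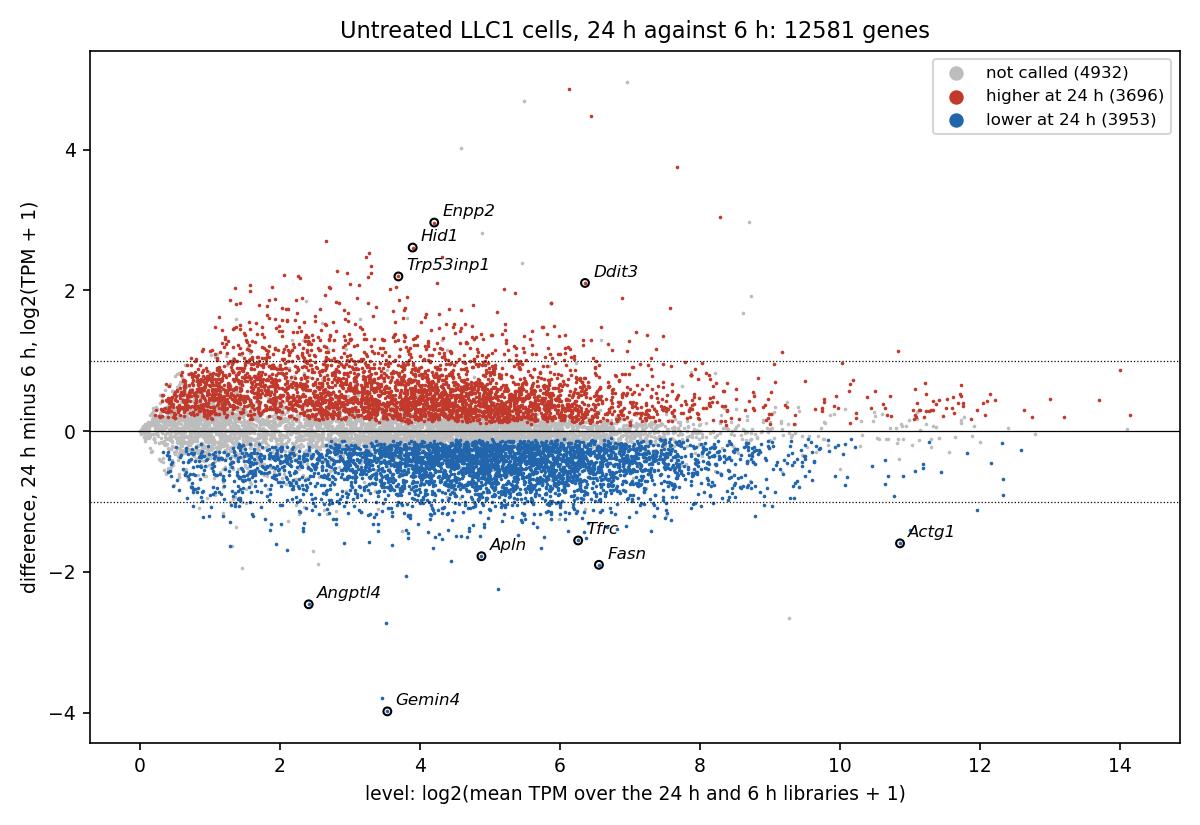
Difference between untreated cells at 24 h and at 6 h (vertical axis, log2(TPM + 1), 24 h minus 6 h) against level (horizontal axis, log2 of the mean TPM + 1) for 12581 genes, each a point, with 3696 higher in red, 3953 lower in blue and 4932 not called in grey. Dotted lines mark a 2-fold difference; Enpp2 and Ddit3 stand among the largest rises and Fasn, Apln and Actg1 among the largest falls, and the points above Enpp2 are pseudogenes.

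Leaving out predicted genes, pseudogenes and genes under 5 TPM in both times, the largest rise was that of Enpp2, which encodes autotaxin, the secreted enzyme that makes lysophosphatidic acid. Enpp2 (ENSMUSG00000022425.16, chromosome 15 from 54838901 to 54952892 in GRCm38) had 32.2, 30.8 and 31.97 TPM at 24 h, against 3.13, 3.24 and 3.19 TPM at 6 h, a difference of 2.96 ± 0.14 (limma adjusted p = 2.99e-12). Ddit3 (ENSMUSG00000025408.15, chromosome 10 from 127290774 to 127296288) encodes CHOP, a stress factor that acts downstream of ATF4. It had 137, 122 and 137 TPM at 24 h, against 29.3, 31.1 and 29.3 TPM at 6 h (2.11 ± 0.07, limma adjusted p = 7.76e-14). Trp53inp1 (ENSMUSG00000028211.11, chromosome 4 from 11156431 to 11174379), a p53-induced gene with a role in autophagy, had 21.3, 19.4 and 19.99 TPM at 24 h, against 3.32, 3.43 and 4.14 TPM at 6 h (2.20 ± 0.11, limma adjusted p = 7.43e-12). In each of these genes all 3 libraries at 24 h lay far above all 3 at 6 h. The rule for naming them required that the times not overlap.

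The other large rises covered secreted proteins, channels, enzymes of lipid and drug metabolism and regulators of growth. Mmp19, a matrix metalloproteinase, had 14.9, 14.5 and 14.8 TPM at 24 h, against 2.65, 2.43 and 2.31 TPM at 6 h (2.19 ± 0.08). Pdcd4, an inhibitor of translation initiation, had 31.5, 27.98 and 29.8 TPM at 24 h, against 6.31, 5.98 and 6.06 TPM at 6 h (2.11 ± 0.09). Hid1, a Golgi-associated protein of secretory granule formation, averaged 24.6 ± 4.53 TPM at 24 h and 3.17 ± 0.516 TPM at 6 h (2.61 ± 0.15). P2rx3, an ATP-gated ion channel, averaged 15.5 ± 1.35 TPM at 24 h and 1.89 ± 0.639 TPM at 6 h (2.53 ± 0.17). Hacl1, a peroxisomal lyase of fatty acid alpha-oxidation, averaged 14.9 ± 0.935 TPM at 24 h and 1.86 ± 0.343 TPM at 6 h (2.48 ± 0.15). Klhl24, an adaptor of a ubiquitin ligase, rose by 2.27 ± 0.08, and Zc3h6, Ypel3, Fmo4 and Insl6 rose by 2.25, 2.25, 2.22 and 2.18. The libraries of the 2 times did not overlap for any of these genes, which the rule for naming them required. Ugt1a6a, a glucuronosyltransferase, rose by 2.35 ± 0.13, but it shares exons with the other genes of its locus, so the assignment of its reads is uncertain. Tmem205 differed by 2.47 ± 0.57, with a wide spread at 6 h: it had 26.9, 31.1 and 34.5 TPM at 24 h, against 7.03, 0.639 and 13.1 TPM at 6 h.

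The largest falls included lipid, iron and cytoskeletal genes and several genes of the nucleolus. Fasn (ENSMUSG00000025153.9, chromosome 11 from 120805846 to 120824547), fatty acid synthase, had 41.2, 34.7 and 40.8 TPM at 24 h, against 149, 143 and 149.8 TPM at 6 h, a difference of -1.90 ± 0.14 (limma adjusted p = 1.06e-09). Angptl4 (ENSMUSG00000002289.16, chromosome 17 from 33773750 to 33781830), a secreted inhibitor of lipoprotein lipase, had 0.696, 1.02 and 0.266 TPM at 24 h, against 8.39, 8.29 and 7.25 TPM at 6 h (-2.46 ± 0.13, limma adjusted p = 1.83e-11). Actg1 (ENSMUSG00000062825.15, chromosome 11 from 120345690 to 120348542), cytoplasmic gamma actin and the most abundant of these mRNAs, had 884, 957 and 924 TPM at 24 h, against 2701, 2760 and 2884 TPM at 6 h (-1.59 ± 0.06, limma adjusted p = 8.80e-14). All 3 genes had every library at 24 h below every library at 6 h, which the rule for naming them required.

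Tfrc, the transferrin receptor that brings iron into the cell, had 40.5, 42.3 and 31.6 TPM at 24 h, against 108, 115 and 116 TPM at 6 h (-1.55 ± 0.12). Apln, the secreted peptide apelin, had 11.9, 13.8 and 11.2 TPM at 24 h, against 42.5, 45.9 and 45.03 TPM at 6 h (-1.78 ± 0.11). Nucleolar and RNA-processing genes were Cd3eap, a subunit of RNA polymerase I (-1.84 ± 0.08), Grwd1, a ribosome assembly factor (-1.65 ± 0.16), Ccdc86 (-1.53 ± 0.13) and Trmt61a, a tRNA methyltransferase (-1.66 ± 0.11). Armc6 and Kbtbd8 fell by 2.05 and 1.69 on the log2 scale. The lowest fitted value was that of Gemin4, of the complex that assembles spliceosomal particles (-3.98 ± 0.43), but its values at 24 h were 2.14e-06, 5.76e-06 and 1.53 TPM, against 23.2, 21.6 and 17.2 TPM at 6 h, so 2 of the 3 libraries were listed near 0 and the third was not. Prl2c3 and Prl2c2, proliferins with near-identical copies, differed by -2.73 ± 0.24 and -2.24 ± 0.11, and the division of their reads among copies is uncertain. Sssca1 differed by -1.57 ± 0.12, and its symbol is held by 2 gene identifiers in the annotation.

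**Figure D2:**
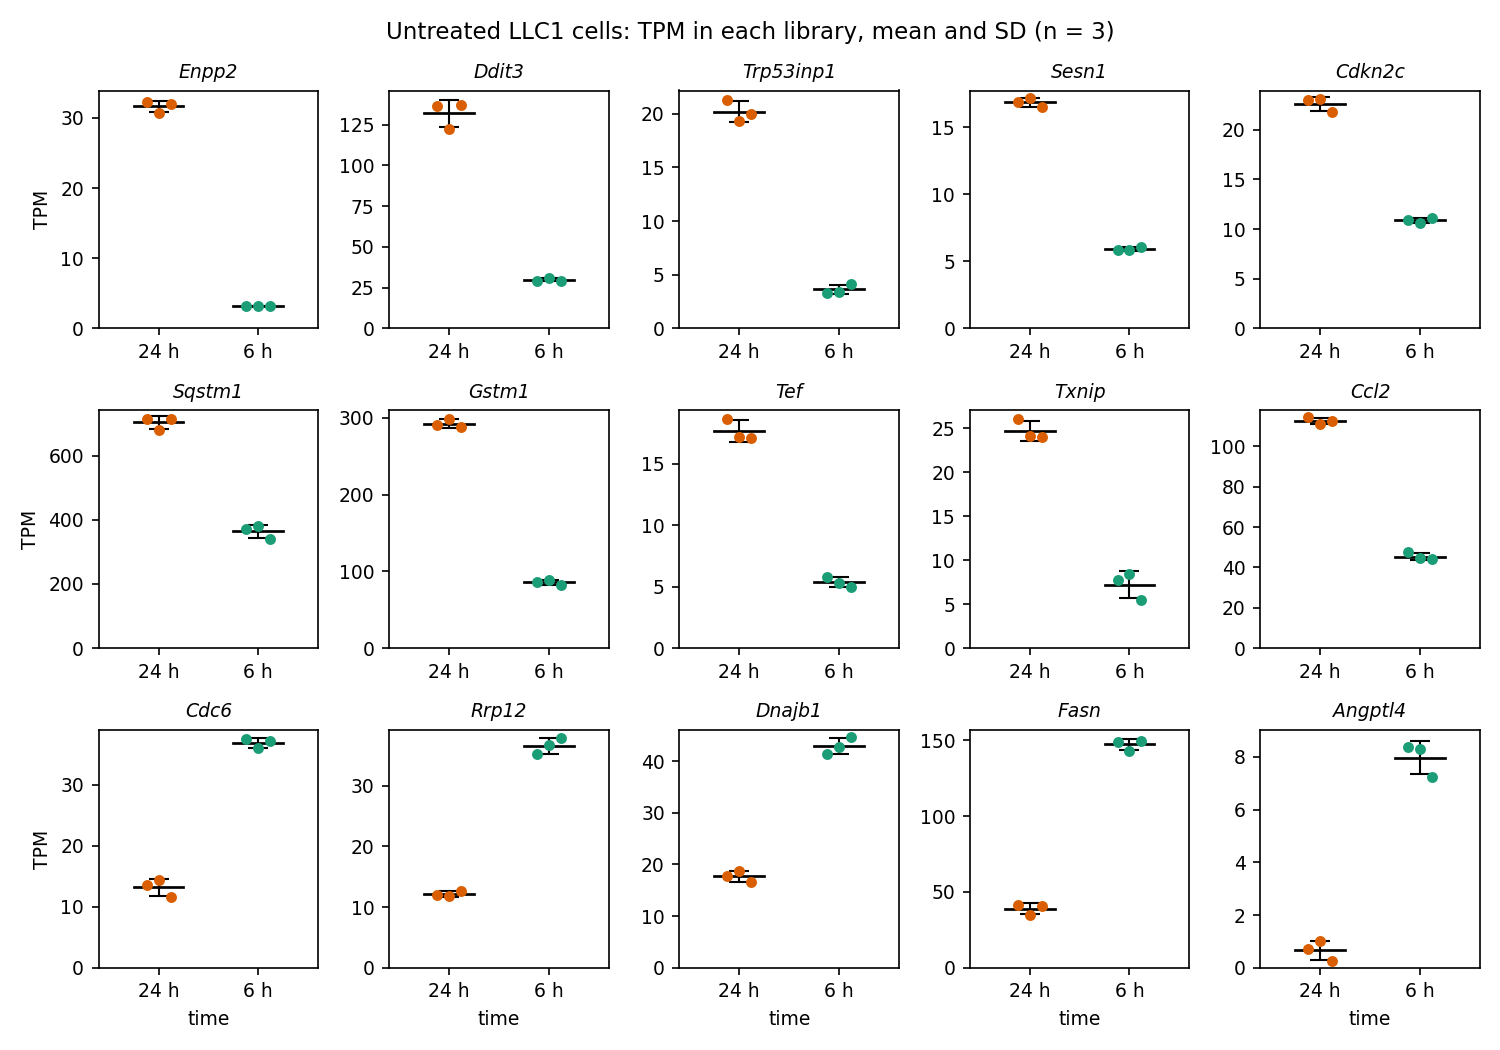
TPM (vertical axes, from 0, 1 scale per gene) in each of the 3 libraries at 24 h (orange, left) and 6 h (green, right) of untreated cells for 15 genes, with the mean as a line and the SD as a bar. In the upper 2 rows, from Enpp2 to Ccl2, the 24 h libraries are the higher ones. In the lowest row, from Cdc6 to Angptl4, they are the lower ones. No panel has an overlap, as for 69.4% of all genes tested.

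Ribosome biogenesis genes fell almost without exception. Of 40 tested members 39 were lower at 24 h, 97.5% against 31.4% of all genes, and none was higher in limma's test (0 also at an unadjusted p under 0.05). The median difference was -0.86, against -0.01 over all genes, and 11 members were at least 2-fold lower. Rrp12, a factor of ribosomal subunit export, had 12.1, 11.8 and 12.7 TPM at 24 h, against 35.2, 36.7 and 37.8 TPM at 6 h (-1.51 ± 0.10). Nop2, which methylates ribosomal RNA, had 57.6, 56.2 and 54.8 TPM at 24 h, against 144, 147 and 148 TPM at 6 h (-1.36 ± 0.07). Bop1, of the complex that matures the large subunit, had 35.6, 35.4 and 39.6 TPM at 24 h, against 97.6, 95.5 and 107 TPM at 6 h (-1.42 ± 0.12).

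The time groups did not overlap for any of the 40 members, against 69.4% of all genes tested without overlap. Polr1b, a large subunit of RNA polymerase I, averaged 36.5 ± 1.46 TPM at 24 h and 76.6 ± 1.86 TPM at 6 h (-1.05 ± 0.09), and the abundant nucleolar protein Ncl averaged 379 ± 16.8 TPM at 24 h and 691 ± 19.2 TPM at 6 h (-0.86 ± 0.06). Fbl, the methyltransferase of box C/D particles, averaged 188 ± 11.9 TPM at 24 h and 342 ± 11.03 TPM at 6 h (-0.86 ± 0.09). The 1 member that did not pass was Npm1, the nucleolar chaperone, with a difference of -0.15 ± 0.07 (limma adjusted p = 0.0710). Myc, the factor known to drive these genes, averaged 236 ± 26.6 TPM at 24 h and 269 ± 12.03 TPM at 6 h, with a difference of -0.20 ± 0.11 that did not pass (limma adjusted p = 0.139).

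Most genes of DNA replication fell too. Of 40 tested S phase and E2F target genes 35 were lower at 24 h, 87.5% against 31.4% of all genes, and none was higher in limma's test (0 also at an unadjusted p under 0.05). Their median difference was -0.57. Cdc6, which loads the replicative helicase at origins, had 13.6, 14.4 and 11.7 TPM at 24 h, against 37.6, 36.1 and 37.1 TPM at 6 h (-1.42 ± 0.08, limma adjusted p = 2.27e-11). Ccne2, a cyclin of S phase entry, averaged 15.8 ± 0.899 TPM at 24 h and 42.3 ± 1.46 TPM at 6 h (-1.37 ± 0.12), and its relative Ccne1 averaged 16.4 ± 2.09 TPM at 24 h and 35.5 ± 2.50 TPM at 6 h (-1.07 ± 0.08). Tyms, thymidylate synthase, had 33.5, 37.8 and 30 TPM at 24 h, against 84.2, 78.6 and 81.5 TPM at 6 h (-1.25 ± 0.07). Pcna, the clamp of DNA polymerases, had 215, 226 and 189.8 TPM at 24 h, against 362, 353 and 365 TPM at 6 h (-0.78 ± 0.05). The helicase subunits Mcm5 and Mcm3 fell by 0.99 and 0.51 on the log2 scale, and the factor E2f1 fell by 0.42. In bulk RNA, fewer cells in S phase and less of these mRNAs per cell cannot be told apart.

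The promoters of 3 of these genes are shown because they hold the E2F motif TTTCCCGC or its reverse complement, GCGGGAAA, in capitals. They are the 3 called members with a match and the smallest p. The choice left out the windows of a chromosome and of contigs outside the main chromosomes. The windows run from 250 bases before to 50 bases after the RefSeq start site in GRCm38.p6, 5′ to 3′ on the strand of the gene.
Cdc6: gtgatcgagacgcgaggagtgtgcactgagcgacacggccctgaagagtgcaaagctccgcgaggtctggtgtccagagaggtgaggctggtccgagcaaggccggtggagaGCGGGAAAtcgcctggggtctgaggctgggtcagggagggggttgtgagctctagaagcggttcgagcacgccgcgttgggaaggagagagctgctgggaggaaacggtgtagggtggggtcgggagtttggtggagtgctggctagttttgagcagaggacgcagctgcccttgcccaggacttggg
Mcm3: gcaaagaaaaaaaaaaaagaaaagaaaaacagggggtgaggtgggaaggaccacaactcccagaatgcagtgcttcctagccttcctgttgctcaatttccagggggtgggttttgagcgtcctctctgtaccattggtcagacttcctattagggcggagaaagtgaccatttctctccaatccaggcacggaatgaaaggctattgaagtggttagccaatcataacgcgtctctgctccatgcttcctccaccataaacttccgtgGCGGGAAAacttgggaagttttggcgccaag
Rfc3: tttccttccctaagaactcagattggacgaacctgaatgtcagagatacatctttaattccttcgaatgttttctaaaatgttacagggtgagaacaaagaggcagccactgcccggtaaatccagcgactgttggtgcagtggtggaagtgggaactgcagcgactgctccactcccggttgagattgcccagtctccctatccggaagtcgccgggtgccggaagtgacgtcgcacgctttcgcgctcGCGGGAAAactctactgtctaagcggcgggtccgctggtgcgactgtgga
Cdc6 lies at chr11:98907901-98908200 on the plus strand with the match starting 138 bases before the start site, at -138. Mcm3 lies at chr1:20820263-20820562 on the minus strand with the match starting at position 20 of the transcript, and Rfc3 at chr5:151651159-151651458 on the minus strand with the match at position 1. A window was found for 34 of the 40 members, and 6 of those (17.6%) held the motif on either strand in at least 1 window. Among tested genes with a window, 230 of 9150 held it (2.51%), and among all promoter windows 351 of 32851 (1.07%). Rfc3, a subunit of the clamp loader, had 26.5, 33.4 and 25.8 TPM at 24 h, against 37.7, 35.6 and 35.5 TPM at 6 h (-0.34 ± 0.08). A match describes the letters of the window and does not show that a factor binds there.

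Mitotic genes did not move as a group. Of 38 tested G2 and mitosis genes 10 were higher (26.3%) and 13 lower (34.2%), close to the shares of 29.4% and 31.4% over all genes, and the median was -0.04. Plk1, a mitotic kinase, had 36.1, 34.3 and 42.8 TPM at 24 h, against 68.9, 65.9 and 77.2 TPM at 6 h (-0.89 ± 0.11), and Birc5, survivin of the chromosomal passenger complex, fell by 0.78 on the log2 scale. Nusap1, a spindle protein, had 57.4, 56.1 and 53.4 TPM at 24 h, against 32.7, 33.3 and 31.2 TPM at 6 h (0.76 ± 0.08), and Ccnb2, a mitotic cyclin, rose by 0.55 ± 0.05. Mki67, the proliferation antigen, averaged 66.9 ± 4.66 TPM at 24 h and 68.6 ± 3.55 TPM at 6 h, with a difference of -0.04 ± 0.09 (limma adjusted p = 0.757). The motif TTTGAA, known as the CHR of late cell cycle promoters, was held on either strand by 23 of 31 members with a window (74.2%), against 14.1% of tested genes and 17.9% of all windows, and the CCAAT box by 26 of 31 (83.9%), against 43.8% and 37.4%.

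Most inhibitors of the cell cycle and genes of quiescence rose. Of 18 tested members 16 were higher (88.9%, against 29.4% of all genes) and none was lower in limma's test (0 also at an unadjusted p under 0.05), with a median of 0.65. Cdkn2c, the CDK4 and CDK6 inhibitor p18, had 22.95, 23.1 and 21.8 TPM at 24 h, against 10.9, 10.7 and 11.1 TPM at 6 h (0.99 ± 0.06, limma adjusted p = 1.45e-10). Cdkn1b, the inhibitor p27, had 27.04, 26.4 and 27.1 TPM at 24 h, against 17.5, 16.8 and 17.2 TPM at 6 h (0.61 ± 0.06). Cdkn2d, the inhibitor p19, had 23.3, 22.4 and 27 TPM at 24 h, against 13.01, 14.1 and 15.4 TPM at 6 h (0.73 ± 0.08). No library of the 2 times overlapped for these 3 genes, as for 69.4% of all genes tested. Sesn1, an inhibitor of mTORC1 signalling, had 16.9, 17.1 and 16.5 TPM at 24 h, against 5.84, 5.85 and 6.04 TPM at 6 h (1.37 ± 0.07). Ccng2, a cyclin of arrested cells, had 16.3, 17.8 and 15.4 TPM at 24 h, against 6.09, 5.46 and 6.16 TPM at 6 h (1.34 ± 0.11), and the retinoblastoma gene Rb1 rose by 1.31 ± 0.25 and its relative Rbl2 by 0.55 ± 0.08. Mxd4, which opposes MYC at its sites, rose by 0.96 ± 0.10. Ccnd1, the cyclin D1 gene, was lower, with 144, 146 and 144 TPM at 24 h, against 212, 227 and 235 TPM at 6 h (-0.63 ± 0.16).

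Of 27 tested p53 target genes 17 were higher (63.0%, against 29.4%) and 6 were lower (22.2%, against 31.4%), with a median of 0.41. Besides Trp53inp1, the largest rises were those of Dglucy (1.17 ± 0.07), Ddb2, which recognises ultraviolet damage (1.16 ± 0.10), and Ercc5, a nuclease of excision repair (1.03 ± 0.06). Cdkn1a, the inhibitor p21, had 172, 154 and 194 TPM at 24 h, against 109.9, 108 and 122.7 TPM at 6 h (0.60 ± 0.12). Mdm2, the ubiquitin ligase of p53, had 112, 115 and 124 TPM at 24 h, against 65.7, 76.5 and 62.7 TPM at 6 h (0.78 ± 0.09). Aen, a nuclease of apoptosis, was lower, with 58.8, 56.2 and 61.2 TPM at 24 h, against 90.3, 92.98 and 102 TPM at 6 h (-0.69 ± 0.09). Trp53 itself averaged 98.5 ± 4.97 TPM at 24 h and 145 ± 3.10 TPM at 6 h, a difference of -0.55 ± 0.06. Without replicate 3 at 6 h the members that were lower numbered 3.

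ATF4 targets moved in both directions. Of 36 tested members 18 were higher (50%, against 29.4%) and 8 lower (22.2%, against 31.4%), with a median of 0.18, and 8 were at least 2-fold higher. Pycr1, an enzyme of proline synthesis, had 63.6, 53.1 and 57.8 TPM at 24 h, against 14.03, 12.9 and 13.8 TPM at 6 h (2.02 ± 0.09, limma adjusted p = 1.26e-12). Slc7a11, the cystine transporter, had 26.2, 24.7 and 24 TPM at 24 h, against 8.67, 8.64 and 8.54 TPM at 6 h (1.43 ± 0.11). Aldh1l2, a mitochondrial enzyme of folate metabolism, had 83.5, 81.4 and 76.4 TPM at 24 h, against 29.99, 35.1 and 26.5 TPM at 6 h (1.38 ± 0.15). Nupr1, a stress-response protein, rose by 1.18 ± 0.11, Fgf21, a secreted stress hormone, by 1.86 ± 0.13, Trib3, an inhibitory pseudokinase, by 0.87 ± 0.12, and Asns, asparagine synthetase, by 0.46 ± 0.05.

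Atf4 mRNA was lower at 24 h, with 372, 380 and 375 TPM at 24 h, against 497, 476 and 469 TPM at 6 h (-0.35 ± 0.06). So were the mRNAs of the arginine transporter Slc7a1 (-0.62 ± 0.08) and of the glutamine transporter Slc38a2 (-0.48 ± 0.06), while the aminoacyl-tRNA synthetase Sars rose by 0.43 ± 0.07 and Nars differed by -0.03 ± 0.06 without passing. Without replicate 2 at 24 h or replicate 1 at 6 h, 5 members were lower.

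Most chaperones of the cytosol and mitochondria fell. Of 15 tested heat shock genes 11 were lower (73.3%, against 31.4%) and none was higher in limma's test (0 also at an unadjusted p under 0.05), with a median of -0.57. Dnajb1, a co-chaperone and a target of the heat shock factor HSF1, had 17.7, 18.8 and 16.6 TPM at 24 h, against 41.4, 42.8 and 44.6 TPM at 6 h (-1.24 ± 0.06, limma adjusted p = 1.88e-12). Hsph1 had 42.3, 45.9 and 40.2 TPM at 24 h, against 114, 119 and 119 TPM at 6 h (-1.43 ± 0.07). Hspa8, the constitutive HSP70 and after Hsp90ab1 the most abundant mRNA of the list, had 2570, 2665 and 2309 TPM at 24 h, against 5223, 5495 and 5580 TPM at 6 h (-1.11 ± 0.06). Hsf1 fell by 0.39 on the log2 scale. Among chaperones of the endoplasmic reticulum and genes of the unfolded protein response 11 of 19 were lower (57.9%, against 31.4%). In that list 4 were higher (21.05%, against 29.4%), and the median was -0.21. Calr, calreticulin, had 449.7, 456 and 419.6 TPM at 24 h, against 836, 859 and 877 TPM at 6 h (-0.96 ± 0.07). Hspa5, the sensor chaperone BiP, was slightly lower, at 578, 568 and 580.2 TPM at 24 h, against 653, 666 and 685 TPM at 6 h (-0.21 ± 0.06), and Xbp1 rose by 0.29 ± 0.06.

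More autophagy and lysosome genes rose than fell. Of 30 tested autophagy and mitophagy genes 19 were higher (63.3%, against 29.4%) and 3 lower (10.0%, against 31.4%), with a median of 0.43. Sqstm1, the cargo receptor p62, had 715, 681 and 714 TPM at 24 h, against 371, 381 and 341 TPM at 6 h (0.95 ± 0.05). Calcoco1, a receptor for autophagy of the endoplasmic reticulum, had 36.3, 33.1 and 37.9 TPM at 24 h, against 10.96, 9.75 and 9.79 TPM at 6 h (1.72 ± 0.11). Pink1, the kinase that marks damaged mitochondria, averaged 20.2 ± 2.04 TPM at 24 h and 7.60 ± 1.09 TPM at 6 h (1.31 ± 0.15). Wipi1, which acts in forming autophagosomes, rose by 1.18 ± 0.06. Of 31 tested lysosomal genes 21 were higher (67.7%) and 4 lower (12.9%), with a median of 0.33, and none differed by 2-fold. The hydrolases Lipa and Glb1 rose by 0.98 ± 0.06 and 0.72 ± 0.04. Ctsd, cathepsin D, had 244, 237 and 240 TPM at 24 h, against 169, 171 and 163 TPM at 6 h (0.52 ± 0.04), whereas the membrane protein Lamp1 was lower, at 266, 272 and 256 TPM at 24 h, against 345, 353 and 346 TPM at 6 h (-0.39 ± 0.04). Tfeb, the factor known to drive these genes, averaged 2.43 ± 0.272 TPM at 24 h and 2.79 ± 0.858 TPM at 6 h, with a difference of -0.12 ± 0.22 that did not pass.

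Of 19 tested NRF2 targets, which serve glutathione, iron storage and detoxification, 12 were higher (63.2%, against 29.4%) and 4 lower (21.1%, against 31.4%), with a median of 0.43. Gstm1, a glutathione transferase, had 291, 299 and 288 TPM at 24 h, against 86.4, 88.99 and 82.5 TPM at 6 h (1.76 ± 0.06, limma adjusted p = 8.80e-14). Nqo1, a quinone reductase, had 187, 174 and 176 TPM at 24 h, against 70.1, 77.4 and 71.9 TPM at 6 h (1.28 ± 0.07). Gsta4 rose by 1.36 ± 0.08, and Abcc1, an exporter of glutathione conjugates, by 0.91 ± 0.06. Fth1, the heavy chain of ferritin, had 2761, 2879 and 3121 TPM at 24 h, against 1851, 1803 and 1794 TPM at 6 h (0.68 ± 0.07), the opposite direction to that of the iron importer Tfrc. Gclm, a subunit of the enzyme that limits glutathione synthesis, was lower (-0.38 ± 0.11), a call lost without replicate 3 at 24 h, when 2 members were lower. Hmox1, haem oxygenase, had 43.3, 36.04 and 44.9 TPM at 24 h, against 43.6, 38.5 and 44.6 TPM at 6 h, overlapping ranges with a difference of -0.03 ± 0.15.

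Lipid synthesis genes moved in both directions. Of 14 tested genes of fatty acid synthesis and desaturation 7 were higher (50%, against 29.4% of all genes) and 5 lower (35.7%, against 31.4%). Beside Fasn, Acaca, which makes malonyl-CoA, averaged 25.97 ± 0.943 TPM at 24 h and 37.6 ± 3.93 TPM at 6 h (-0.51 ± 0.12), and Elovl6, an elongase, fell by 0.59 on the log2 scale. The desaturases Scd1 and Scd2 rose: Scd1 had 91.1, 87.6 and 89.2 TPM at 24 h, against 49.6, 51.7 and 50.96 TPM at 6 h (0.80 ± 0.06) and Scd2 had 171, 171 and 165 TPM at 24 h, against 89.6, 89.96 and 89.4 TPM at 6 h (0.91 ± 0.08). Of 24 tested genes of cholesterol synthesis and uptake 3 were higher and 5 lower, fewer than the shares of all genes, with a median of -0.08, and 3 were lower without replicate 2 at 24 h.

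Of 36 tested genes of glycolysis and the hypoxia response 14 were higher (38.9%, against 29.4% of all genes). Another 11 were lower (30.6%, near the 31.4% of all genes), and the median was -0.06. Ero1l, an oxidase of the endoplasmic reticulum, had 176, 173 and 163 TPM at 24 h, against 76.4, 78.6 and 75.9 TPM at 6 h (1.137 ± 0.11). Ndrg1 rose by 1.09 ± 0.12, Pdk1, which restrains entry of pyruvate into mitochondria, by 0.90 ± 0.08, and Vegfa, the angiogenic factor, by 0.65 ± 0.07. Ldha, lactate dehydrogenase, was lower, with 1968, 2040 and 1886 TPM at 24 h, against 2674, 2740 and 2703 TPM at 6 h (-0.46 ± 0.05), as were Hk2, a hexokinase (-0.50 ± 0.15), and Pfkfb3, which raises glycolytic flux (-0.85 ± 0.11). Angptl4, described above, is also a member and was its lowest. Txnip, an arrestin that rises with glucose phosphates through MondoA, had 26.1, 24.1 and 24.02 TPM at 24 h, against 7.74, 8.42 and 5.46 TPM at 6 h (1.67 ± 0.13), and its relative Arrdc3 rose by 0.68 ± 0.06.

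Clock genes of the PAR bZIP family rose most in the circadian list. Of 18 tested members 9 were higher (50%, against 29.4% of all genes) and 5 lower (27.8%, against 31.4%). Only 2 were lower without replicate 2 at 24 h and 3 without replicate 1 at 6 h. Tef, a PAR bZIP factor, had 18.7, 17.2 and 17.1 TPM at 24 h, against 5.79, 5.33 and 5.01 TPM at 6 h (1.55 ± 0.08, limma adjusted p = 8.94e-12), and its relative Dbp had 1.56, 1.49 and 1.68 TPM at 24 h, against 0.148, 0.106 and 0.170 TPM at 6 h (1.18 ± 0.13). Nr1d2, the repressor REV-ERB beta, had 14.8, 14.6 and 13.6 TPM at 24 h, against 6.83, 7.39 and 6.999 TPM at 6 h (0.93 ± 0.08). Per2 and Per3 rose by 0.55 ± 0.09 and 0.74 ± 0.09, and Per1 differed by 0.06 ± 0.18 without passing. Bhlhe40 and Arntl, the partner of CLOCK, were lower (-0.56 ± 0.11 and -0.26 ± 0.07). With 2 times, no rhythm can be read from these values.

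The promoter of Tef is shown because it holds the E-box CACGTG, in capitals, the site that CLOCK and BMAL1 are known to bind in clock genes. The window is chr15:81802423-81802722 on the plus strand of GRCm38.p6, from RefSeq, with the match starting at -127 from the start site.
Tef: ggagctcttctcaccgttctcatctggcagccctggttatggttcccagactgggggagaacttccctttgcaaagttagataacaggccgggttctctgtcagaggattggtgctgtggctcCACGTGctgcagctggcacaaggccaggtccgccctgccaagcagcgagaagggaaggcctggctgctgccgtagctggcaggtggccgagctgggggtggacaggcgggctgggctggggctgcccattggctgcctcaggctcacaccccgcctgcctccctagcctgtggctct
Of 18 members 14 had a window, and 5 of those (35.7%) held the E-box, which reads the same on both strands. Among tested genes with a window the share was 11.9%, and among all windows 7.15%. Tef had the smallest p of the called members with a match, with the same windows left out as for the E2F motif. Cry1, the next by p, was lower at 24 h and also held 1 match, starting at -60. The hypoxia core ACGTG, which every E-box also contains, was held by 23 of 33 glycolysis and hypoxia genes with a window (69.7%), against 29.6% of tested genes and 19.6% of all windows.

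Several chemokine and antigen presentation genes rose. Of 12 tested chemokine genes 8 were higher (66.7%, against 29.4% of all genes). None was lower in limma's test (0 also at an unadjusted p under 0.05), against 31.4% of all genes. The median was 0.39, and 5 were higher without replicate 1 at 6 h. Ccl2, which draws monocytes, had 114, 111 and 112 TPM at 24 h, against 47.4, 44.6 and 44.1 TPM at 6 h (1.29 ± 0.12, limma adjusted p = 1.55e-08). Ccl7 had 7.78, 7.74 and 7.91 TPM at 24 h, against 2.47, 2.52 and 1.78 TPM at 6 h (1.44 ± 0.13), and Cxcl1, which draws neutrophils, had 6.87, 4.70 and 6.15 TPM at 24 h, against 2.58, 2.19 and 2.64 TPM at 6 h (0.98 ± 0.12). Cxcl10, named in the title of the series, stayed under 1 TPM, with 0.390, 0.396 and 0.456 TPM at 24 h, against 0.145, 0.125 and 0.233 TPM at 6 h (0.28 ± 0.12, limma adjusted p = 0.0454), a call lost when any of the 3 libraries at 24 h, or replicate 1 or 2 at 6 h, was left out, with no filter on low values, and with the replicate block in the 6 untreated libraries.

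Of 18 tested genes of MHC class I presentation 10 were higher (55.6%, against 29.4% of all genes) and 1 lower (5.56%, against 31.4%). Tap1, a subunit of the peptide transporter, had 6.20, 5.33 and 7.44 TPM at 24 h, against 1.08, 2.47 and 2.32 TPM at 6 h (1.34 ± 0.17). H2-K1, a class I heavy chain of a family with near-identical copies, had 14.7, 11.9 and 16.95 TPM at 24 h, against 6.10, 5.39 and 5.78 TPM at 6 h (1.19 ± 0.11). B2m, the light chain, had 547, 551 and 546 TPM at 24 h, against 429, 428 and 414 TPM at 6 h (0.37 ± 0.04). Psmb10, an immunoproteasome subunit, was the lower member, with 8.28, 8.20 and 8.77 TPM at 24 h, against 24.2, 23.3 and 25.7 TPM at 6 h (-1.43 ± 0.12). Of 31 tested interferon-stimulated genes 16 were higher (51.6%, against 29.4%) and 2 lower (6.45%, against 31.4%), with a median of 0.27. Ddx58, the RNA sensor RIG-I, had 13.4, 14.5 and 12.4 TPM at 24 h, against 7.19, 6.88 and 7.22 TPM at 6 h (0.83 ± 0.11), and Isg15 averaged 2.37 ± 0.313 TPM at 24 h and 0.709 ± 0.313 TPM at 6 h (0.99 ± 0.18). Irf9, of the factor ISGF3, was lower, with 3.56, 3.18 and 3.53 TPM at 24 h, against 7.49, 8.42 and 7.96 TPM at 6 h (-1.02 ± 0.07); the other lower call, Dhx58, had overlapping libraries and was lost under 11 of the alternatives, among them the replicate block, the fit to the 6 untreated libraries, median ratio rescaling and 4 of the 6 fits that left out a library. Among NF-kB targets 4 of 18 were higher (22.2%, against 29.4%) and 6 lower (33.3%, near the 31.4% of all genes). Nfkbia, the feedback inhibitor, stood at -0.78 ± 0.08 and Ptgs2, cyclooxygenase 2, at 0.91 ± 0.11.

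Contractile and cytoskeletal genes were among those that fell, besides Actg1. Of 16 tested TGF-beta and smooth muscle genes 8 were lower (50%, against 31.4%) and 2 higher (12.5%, against 29.4%), with a median of -0.32. Cnn2, calponin 2, had 104, 107 and 125 TPM at 24 h, against 258, 261 and 291 TPM at 6 h (-1.27 ± 0.10). Acta2, smooth muscle actin, had 5.95, 6.58 and 6.53 TPM at 24 h, against 16.04, 16.01 and 15.7 TPM at 6 h (-1.20 ± 0.10). Srf, the factor known to drive actin genes, had 17.6, 16.9 and 20.7 TPM at 24 h, against 32.8, 33.9 and 37.5 TPM at 6 h (-0.88 ± 0.09). Among 18 tested YAP and TEAD targets 10 were lower (55.6%, against 31.4%) and 4 higher (22.2%, against 29.4%), with a median of -0.20. Ccn1 and Amotl2 fell by 0.96 and 0.98 on the log2 scale, whereas Ankrd1 rose by 0.32 ± 0.10.

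Matrix genes showed no common direction. Of 24 tested collagen and matrix genes 7 were higher (29.2%, against 29.4% of all genes) and 4 lower (16.7%, against 31.4%). Without replicate 1 or 2 at 24 h or replicate 1 or 3 at 6 h 2 were lower. Col18a1, a basement membrane collagen, had 147, 136 and 157 TPM at 24 h, against 67.4, 61.7 and 67.6 TPM at 6 h (1.15 ± 0.10). Col3a1 and Fn1, fibronectin, rose by 0.82 ± 0.09 and 0.74 ± 0.07, and Thbs1, thrombospondin 1, fell by 0.83. Besides Mmp19, the collagenase Mmp13 rose by 1.36 ± 0.10, and the inhibitor Timp2 fell by 0.84.

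ERK output genes were divided. Of 23 tested members 8 were higher (34.8%) and 8 lower (34.8%), near the shares of all genes. Plaur, the urokinase receptor, had 26.2, 24.3 and 31.7 TPM at 24 h, against 67.04, 67.1 and 82.4 TPM at 6 h (-1.37 ± 0.17). Hbegf, a ligand of the EGF receptor, fell by 0.72 and Fosl1, listed with the immediate early genes, by 0.85. Etv1, an ETS factor, had 33.8, 31.5 and 31.3 TPM at 24 h, against 10.8, 10.4 and 10.7 TPM at 6 h (1.52 ± 0.13), and the phosphatase Dusp6, the feedback inhibitor of ERK, had 106, 105 and 118 TPM at 24 h, against 71.4, 71.3 and 77.8 TPM at 6 h (0.57 ± 0.14). The ligands Areg and Ereg rose by 0.72 ± 0.10 and 0.66 ± 0.09. Among 21 tested immediate early genes 10 were lower (47.6%, against 31.4% of all genes) and 4 higher (19.05%, against 29.4%). Atf3, a stress factor, led the higher ones with 18.8, 17.7 and 18.5 TPM at 24 h, against 7.43, 7.49 and 5.98 TPM at 6 h (1.29 ± 0.09).

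Among cytosolic ribosomal protein genes more rose than fell, but the values of single members were uncertain. Of 81 tested members 33 were higher (40.7%, against 29.4% of all genes) and 2 lower (2.47%, against 31.4%). The median was 0.18. When 1 library was left out 29 to 32 were higher, and 4 were lower without replicate 3 at 24 h. Many of these genes have processed pseudogenes with nearly the same sequence. When only protein-coding transcripts were summed, an alternative added after the data were seen, 26 were higher, and Rps18, Rpl21, Rps2 and Rpl24 changed sign. Rps12 was not called, with 548, 4.20 and 723 TPM at 24 h, against 672, 787 and 982 TPM at 6 h. The pseudogene Rps12l1 had 98.4, 246 and 38.5 TPM at 24 h, against 30.1, 0.276 and 0 TPM at 6 h, and the pseudogene Rps6-ps4 had 0.000328, 151 and 113 TPM at 24 h, against 0.00432, 9.84e-05 and 5.30e-08 TPM at 6 h. In both, libraries of the same time stood far apart. Among 78 tested nuclear genes of the respiratory chain 25 were lower (32.05%, against 31.4% of all genes) and 12 higher (15.4%, against 29.4%). The median was -0.12, the lower share was near that of all genes, and 17 to 21 were lower when 1 library was left out. Cycs, cytochrome c, had 92.4, 92.03 and 107 TPM at 24 h, against 214, 221 and 242 TPM at 6 h (-1.21 ± 0.31), and Cox7a2l, of respiratory supercomplexes, had 349.7, 349 and 358 TPM at 24 h, against 208, 198 and 203 TPM at 6 h (0.79 ± 0.04). Mitochondrially encoded mRNAs held 9.37% to 10.1% of the TPM at 24 h, against 8.62% to 9.05% at 6 h. Of these 13 mRNAs 3 were higher and 3 lower (23.1% each, against 29.4% and 31.4% of all genes). Among them mt-Co1 had 20870, 20670 and 21910 TPM at 24 h, against 11750, 11450 and 11450 TPM at 6 h (0.87 ± 0.06), and mt-Cytb had 3758, 4429 and 3680 TPM at 24 h, against 6392, 6250 and 6240 TPM at 6 h (-0.67 ± 0.06).

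**Figure D3:**
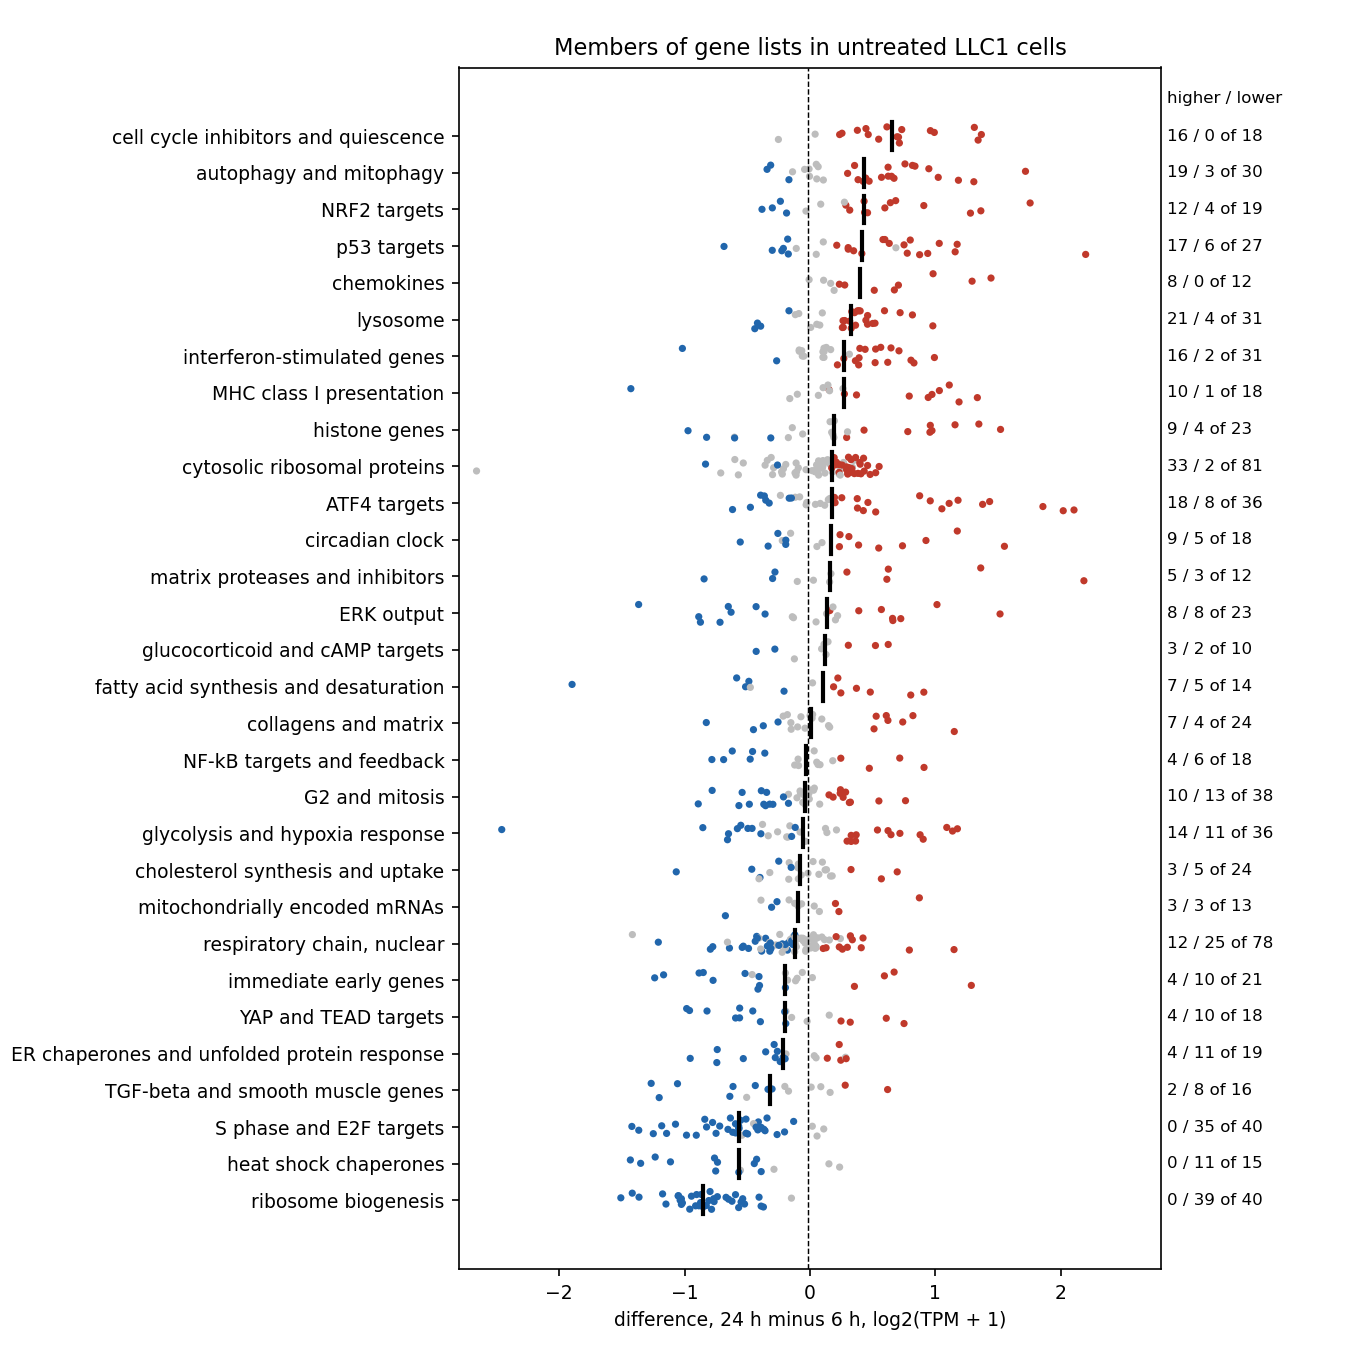
Difference between 24 h and 6 h of untreated cells (horizontal axis, log2(TPM + 1), 24 h minus 6 h) for each tested member (point) of the gene lists with at least 10 tested members, ordered by the list's median (black bar); red is higher, blue lower and grey not called, and the dashed line is the median of all genes. Cell cycle inhibitors and quiescence genes stand highest with a median of 0.65 and 16 of 18 members higher, and ribosome biogenesis lowest with a median of -0.86 and 39 of 40 members lower.

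The same time step was measured in the 3 drug arms, in libraries that share none with the untreated cells. Between 24 h and 6 h, 63.4% of genes differed in CP, 56.2% in T and 58.4% in TCP, against 60.8% in untreated cells. Higher at 24 h were 36.1% of genes in CP, 21.9% in T and 27.4% in TCP, against 29.4% in untreated cells, and lower were 27.3% in CP, 34.3% in T and 30.9% in TCP, against 31.4% in untreated cells; the counts of shared genes and of list members in each arm are read against these. Of the 3696 genes higher at 24 h in untreated cells, 2415 were also higher in CP (65.3% of the untreated list and 53.1% of the CP list), 1769 in T (47.9% and 64.3%) and 1719 in TCP (46.5% and 49.8%), and 1030 were higher in all 3 arms. Of the 3953 lower genes, 2161 were also lower in CP (54.7% and 63.0%), 2599 in T (65.8% and 60.3%) and 2040 in TCP (51.6% and 52.4%), and 1373 were lower in all 3. In the opposite direction went 294, 488 and 672 of the higher genes and 592, 214 and 557 of the lower genes, in CP, T and TCP in that order.

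The difference between time steps was tested directly as an interaction, the arm minus the untreated cells. It passed for 45% of genes with CP, 38.2% with T and 49.7% with TCP, and the 3 tests share the untreated libraries. Of the 15 largest rises named above, 14 also rose in CP, 11 in T and 10 in TCP, and the interaction passed for 10, 15 and 11 of them. These rises, and the 15 falls below, were picked for the size of their untreated difference. Each interaction subtracts that same difference, so the choice of genes favours smaller changes in the arms. Hid1 differed by 0.89 ± 0.15 in CP, 0.34 ± 0.15 in T and 0.18 ± 0.15 in TCP, against 2.61 ± 0.15 in untreated cells, and P2rx3 by 0.90 ± 0.17, 0.41 ± 0.17 and 0.18 ± 0.17, against 2.53 ± 0.17. The interaction passed in all 3 arms for both. Enpp2 rose in every arm, by 2.59 ± 0.14 in CP, 1.81 ± 0.14 in T and 2.76 ± 0.14 in TCP, and its interaction passed with T (-1.15 ± 0.19, limma adjusted p = 0.000109). Of the 15 largest falls 13 also fell in CP, 13 in T and 12 in TCP, with interactions for 9, 12 and 13. Angptl4 rose with TCP (1.34 ± 0.13, limma adjusted p = 6.40e-08), and in CP and T it differed by 0.12 ± 0.13 and 0.04 ± 0.13 without passing, against -2.46 ± 0.13 in untreated cells.

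Of 40 S phase and E2F targets, 22 were higher and 7 lower in CP (36.1% and 27.3% of all genes), 31 were lower in T (34.3%), 8 were higher and 14 lower in TCP (27.4% and 30.9%), and 35 were lower in untreated cells (31.4%). The interaction passed for 36 members with CP, 18 with T and 29 with TCP, against 45%, 38.2% and 49.7% of all genes. Cdc6 differed by 0.43 ± 0.08 in CP, -0.44 ± 0.08 in T and 0.14 ± 0.08 in TCP, against -1.42 ± 0.08 in untreated cells, with each interaction past the test. Ribosome biogenesis genes were lower for 35 of 40 members in CP, 33 in T and 22 in TCP, against 39 in untreated cells, with medians of -0.48 in CP, -0.45 in T and -0.21 in TCP, against -0.86 in untreated cells, and interactions passed for 19, 19 and 31 of 40 members, the count with CP near the share of all genes, 45%. Of 15 heat shock chaperones 10 were lower in CP, 13 in T and 11 in TCP, against 11 in untreated cells, with medians of -0.39 in CP, -0.85 in T and -0.73 in TCP, against -0.57 in untreated cells. Their interactions passed for 6 members with CP, 7 with T and 10 with TCP, so for heat shock chaperones the count with CP was below the share of all genes.

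NRF2 targets had medians of -0.29 in CP, -0.48 in T and -0.44 in TCP, against 0.43 in untreated cells, and the interaction passed for 15, 16 and 17 of 19 members. Nqo1 differed by 0.06 ± 0.07 in CP, -1.01 ± 0.07 in T and -0.46 ± 0.07 in TCP, against 1.28 ± 0.07 in untreated cells (interactions with limma adjusted p of 1.11e-08, 8.92e-12 and 1.07e-10). p53 targets had a median of -0.38 in T, with 3 members higher and 18 lower (21.9% and 34.3% of all genes), against 0.41 in untreated cells, and the interaction passed for 20 of 27. In CP and TCP their medians were 0.57 and 0.32. Genes of cholesterol synthesis and uptake had a median of 1.00 in T with 21 of 24 members higher (21.9% of all genes), against -0.08 in untreated cells, and the interaction passed for 20. For Ddit3 the differences were 2.91 ± 0.07 in CP, 0.83 ± 0.07 in T and 2.24 ± 0.07 in TCP, against 2.11 ± 0.07 in untreated cells, and it rose in all 4 conditions.

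**Figure D4:**
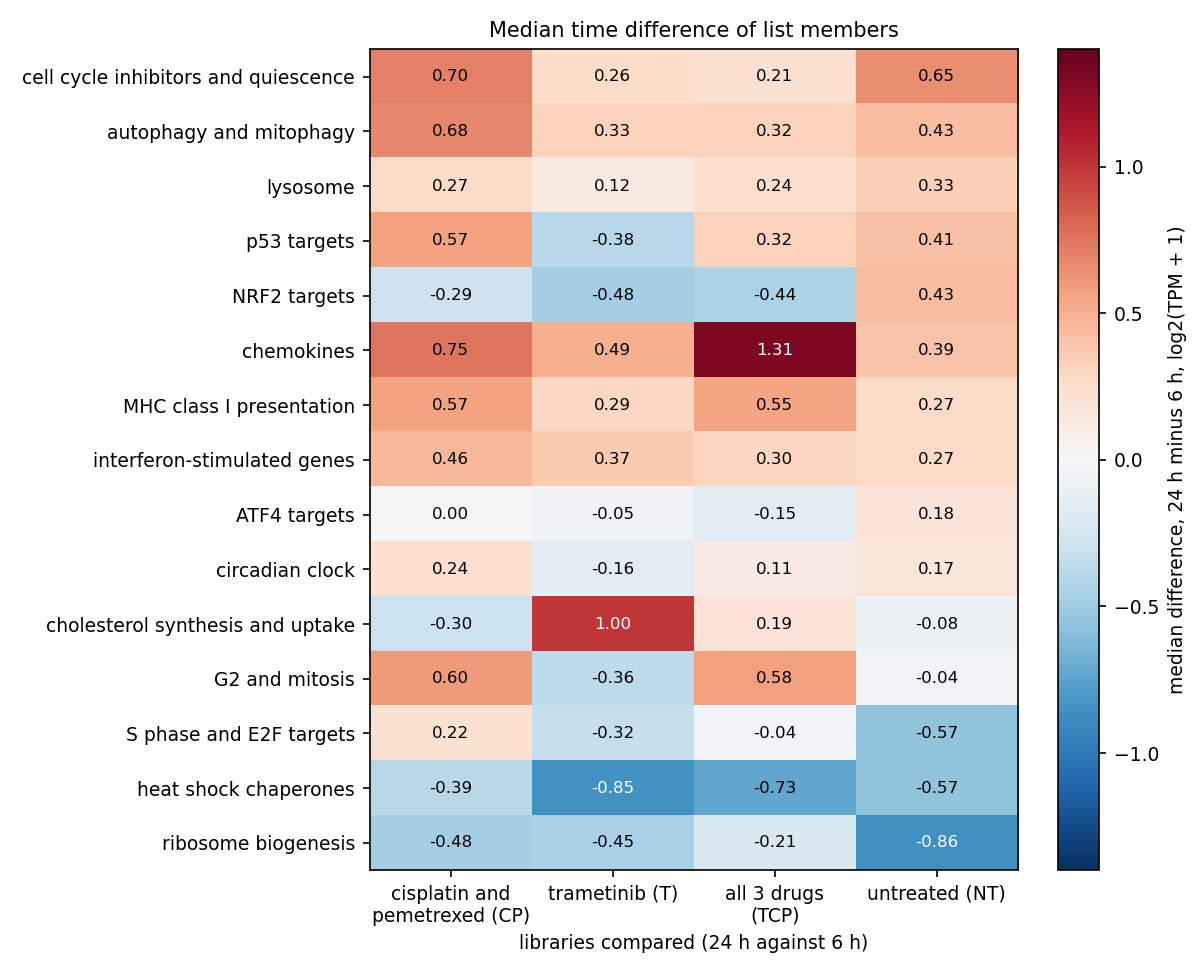
Median difference between 24 h and 6 h (log2(TPM + 1), in each cell and as colour, red higher and blue lower at 24 h) of the tested members of 15 gene lists (rows) in CP, T, TCP and untreated cells (columns), 3 libraries per time in each column. Ribosome biogenesis and heat shock chaperones are below 0 in every column, and NRF2 targets are at 0.43 in untreated cells and below 0 in the 3 drug columns.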

How the data were processed

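Poly(A) mRNA of LLC1 cells was made into stranded libraries and sequenced, per the labels' protocols. The deposited table holds TPM per transcript, made by the authors with bcl2fastq 2.17.1.14 and kallisto 0.45 on GRCm38, per the submitters' processing notes; TPM keeps no read depth, so no counting interval can be given. Pseudoalignment divides reads among near-identical transcripts, so genes with processed pseudogenes or copies are uncertain. Transcripts were matched to GENCODE M21 (79662 of 82934, 3272 not matched) and summed into 28328 genes. Genes had to reach 1 TPM in 3 or more of the 24 libraries, and the 12581 that did were tested on log2(TPM + 1), a scale that understates changes of low genes, with limma 3.58.1 (R 4.3.3, variance trend, 8 groups of 3 libraries, 16 residual degrees of freedom) and Benjamini-Hochberg adjustment over all of them. The series' design text gives a count model with a Bonferroni adjusted p under 0.10 for these samples. The deposited unit is not counts, so no count model was fitted, and that threshold served as an alternative. Tables and figures used Python 3.11.15, pandas 2.3.3 and matplotlib 3.10.9.

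On simulated data of 12581 genes the untreated comparison called 0 genes with no change made. Of 50 genes each changed 1.25-fold, 1.5-fold, 2-fold and 3-fold it called 26, 47, 49 and 48, with 7 calls among unchanged genes. The changed genes were drawn only from those averaging over 5 TPM in the untreated libraries. The simulated spread was independent between libraries, so these counts cannot show what shared cultures or harvests would do. Named were the 15 largest rises and the 15 largest falls among called genes with a mean of at least 5 TPM in the higher group, no overlap between the times and neither a predicted gene nor a pseudogene. From each of 36 gene lists its first 3 members could be named, the 4 called members of lowest p, and further members where a list is described, as could Cxcl10. The pseudogenes Rps12l1 and Rps6-ps4 were chosen after their values were seen. The lists and members were chosen with earlier results of these data known. Alternatives changed the libraries in the fit, pseudocount, filter, scaling, replicate block, variance trend, multiple testing and transcripts summed, or left out each untreated library in turn. Some list members are not reported here. Promoter windows came from RefSeq (GRCm38.p6).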

Additional observations from a re-analysis of the deposited data

Results flagged for a closer look

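The time step differed between each drug arm and untreated cells, by the interaction in limma with a Benjamini-Hochberg adjusted p under 0.05 over 12581 genes, for 5668 genes with CP, 4810 genes with T and 6249 genes with TCP. These 3 counts rest on the same 6 untreated libraries. Among the 30 genes named for their size, the interaction of Angptl4 with TCP was 3.80 on the log2 scale: its difference between 24 h and 6 h was 1.34 ± 0.13 with TCP, against -2.46 ± 0.13 in untreated cells. The 30 genes were picked by the untreated difference, which the interaction subtracts, so the choice favours large interactions. What sets these interactions was not tested.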

How the results depend on the processing

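The count of genes that differed between 24 h and 6 h in untreated cells was 7968 with only the 6 untreated libraries, 7697 with a pseudocount of 0.1, 7958 with no filter, 6323 with a mean of at least 5 TPM, 7910 with median ratio rescaling, 7635 without mitochondrial genes, 7622 without a variance trend, 7281 with protein-coding transcripts alone and 6987 to 7232 when 1 library was left out, against 7649 as reported. With a Bonferroni adjusted p under 0.10 it was 3202 (1578 higher and 1624 lower), and 3394 in CP, 2366 in T and 2782 in TCP; the interactions with untreated cells then passed for 1409, 1157 and 1868 genes. Under that rule the members that remained called were 32 of 39 lower for ribosome biogenesis, 27 of 35 lower for S phase, 9 of 11 lower for heat shock, 10 of 16 higher for cell cycle inhibitors, 11 of 17 higher and 1 of 6 lower for p53 targets, 11 of 18 higher and 3 of 8 lower for ATF4 targets, 8 of 12 higher and 0 of 4 lower for NRF2 targets, 13 of 19 higher for autophagy, 12 of 21 higher for lysosome, 5 of 16 higher for interferon-stimulated genes and 4 of 8 higher for chemokines. Lists with smaller differences kept fewer: 1 of 10 lower for immediate early genes, 4 of 25 lower for the respiratory chain, 9 of 33 higher for ribosomal proteins, 0 of 5 lower for the clock, 0 of 4 higher and 4 of 11 lower for chaperones of the endoplasmic reticulum, 3 of 10 lower for YAP and TEAD targets, 2 of 10 higher and 7 of 13 lower for mitotic genes and 1 of 5 lower for cholesterol genes. The labels do not say whether same-numbered libraries share a culture. Their deviations from the group means correlated at -0.0521, 0.0747 and 0.21, against -0.194 to 0.151 for differently numbered libraries. Deviations of 3 libraries sum to 0 within a group, so these values cannot decide whether the libraries are paired. With the replicate block 7525 genes passed, and 7906 with the block in only the 6 untreated libraries. Of 869 members and largest changes, 578 were called. Of these 464 kept their call under every alternative but Bonferroni in which they were tested. The filter of a mean of at least 5 TPM left some of them untested, which was not counted as a lost call. Summing protein-coding transcripts alone, an alternative chosen after seeing the data, turned the sign of 10 of them, each as reported first: Slc1a5 -0.33 and 0.42, Srebf1 0.22 and -0.0533, Pola1 -0.36 and 0.00094, Becn1 -0.17 and 0.0312, Tsc22d3 0.14 and -0.53, Aurkb 0.0010 and -0.11, Rps18 0.46 and -0.0652, Rpl21 0.33 and -0.0223, Rps2 0.20 and -0.16, and Rpl24 0.30 and -0.66; for these the transcripts counted differ by construction. Counts of members called moved by over 1.5 times without 1 library for lists with few calls, as given beside them. The depth behind TPM is unknown, so low values such as those of Cxcl10 have no counting limit.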

Other observations

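Complement and acute phase genes were among the low-level mRNAs that rose. Of 9 tested members 6 were higher (66.7%, against 29.4% of all genes) and 1 lower (11.1%, against 31.4%). A further 10 of the 19 listed members were not tested. The lower call, Cfb, was lost without replicate 3 at 24 h. C1s1, a protease of the first complement component, had 8.90, 8.89 and 8.32 TPM at 24 h, against 3.29, 2.60 and 3.03 TPM at 6 h (1.29 ± 0.13), and its partner C1ra had 16.9, 17.5 and 17.2 TPM at 24 h, against 8.66, 8.44 and 8.30 TPM at 6 h (0.94 ± 0.07). Notch and BMP readouts included falls. Hes1, a repressor induced by Notch, had 0.894, 0.924 and 0.845 TPM at 24 h, against 4.78, 3.996 and 5.60 TPM at 6 h (-1.61 ± 0.16). Of the 7 tested members of its list 1 was higher (14.3%) and 2 lower (28.6%, near the share of all genes). The inhibitors of differentiation Id2 and Id3 had differences of -0.75 ± 0.09 and -0.82 ± 0.23. Of 9 tested members of their list 2 were higher (22.2%) and 3 lower (33.3%, near the share of all genes). Without replicate 1 or 3 at 6 h 1 was higher.

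The histone genes came mostly from the replication-dependent clusters, whose mRNAs mostly lack a poly(A) tail, but included the replacement linker histone H1f0. Of 23 tested members 9 were higher (39.1%, against 29.4% of all genes) and 4 lower (17.4%, against 31.4%). Without replicate 1 at 24 h 2 were lower. H1f0, the linker histone of resting cells, had 247, 255 and 259 TPM at 24 h, against 102, 101 and 94.7 TPM at 6 h (1.35 ± 0.06). Hist2h2be, a histone gene with a polyadenylated transcript, had 11.4, 11.2 and 12 TPM at 24 h, against 3.35, 3.12 and 3.64 TPM at 6 h (1.52 ± 0.07). Of 5 tested metallothionein and zinc genes 4 were lower (80%, against 31.4% of all genes). None was higher in limma's test (0 also at an unadjusted p under 0.05), against 29.4% of all genes. Without replicate 2 at 24 h 2 were lower. Slc39a10, a zinc importer, averaged 23.2 ± 1.27 TPM at 24 h and 38.2 ± 1.46 TPM at 6 h (-0.69 ± 0.07). Glucocorticoid and cAMP targets had 3 of 10 tested members higher (30%, near the share of all genes) and 2 lower (20%), with Pde4b, a phosphodiesterase of cAMP, at 0.62 ± 0.08. Wnt targets had 2 of 7 higher and 2 lower (28.6% each, near the shares of all genes). Without replicate 1 or 2 at 24 h or replicate 2 or 3 at 6 h 1 was lower.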
